A study of Mus musculus with 7 samples.

Results

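Meox1, Nxf3, Pdlim3 and Adarb2 were examined as 4 genes, of 17422 in all, that stood high in the mouse PDGF-B-labelled gliomas. They were chosen by name for that level, so the differences that chose them are given as descriptions without a test. The working name for the group was glioma-restricted genes. The levels went against that name for Adarb2. For Pdlim3 they separated the PDGF-B-labelled gliomas from all other libraries rather than gliomas from cultured cells. For Nxf3 every glioma stood above the culture. In pooled reads scaled to library size, the EGFRvIII-labelled gliomas did so by 3.54-fold and those labelled PDGF-B by 343-fold.

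RNA of DsRed-sorted cells was sequenced from 3 PDGF-B-labelled gliomas, 3 EGFRvIII-labelled gliomas and 1 PDGF-B-transduced progenitor culture. By their labels, the PDGF-B-labelled gliomas came from wild-type Balb/c embryonic neural precursors carrying retroviral PDGF-B and DsRed, and the EGFRvIII-labelled gliomas from Ink/Arf -/- Balb/c precursors carrying retroviral EGFRvIII, an activated receptor, and DsRed. Precursors were taken at embryonic day 14, kept in medium with bFGF and EGF for 10 days and grafted into adult BALB/c brains at 20000 cells per graft, and tumours were collected at the first neurological symptoms. By its labels the culture was wild-type Balb/c, taken at embryonic day 14, transduced with PDGF-B and sorted for DsRed without grafting. The sources give no age of the hosts at collection. Because the labels give each oncogene its own genotype, their parts in any difference cannot be told apart.

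Depth ranged from 32513738 to 39062552 reads per library, and mitochondrial genes held 4.20% to 6.14% of CPM (read counts scaled to library size) in the gliomas against 9.53% in the culture. The levels of Egfr and Pdgfb went against the oncogene labels of all 6 gliomas. Cdkn2a, the gene of the Ink/Arf locus, was higher in the gliomas labelled Ink/Arf -/- than in those labelled wild-type. Egfr stood at 3594 to 5109 CPM in the PDGF-B-labelled gliomas, 25.6 to 41.2 CPM in the EGFRvIII-labelled gliomas and 282 CPM in the culture, and Pdgfb at 1.95 to 4.88, 277 to 386 and 245 CPM in the same order. Cdkn2a stood at 2.94 to 4.99, 11.2 to 26.1 and 10.7 CPM in the same order (log2 difference between the glioma groups -2.31 ± 0.39, SE, limma adjusted p = 0.0318), a call that ended in 7 of 13 alternatives and, of the gliomas left out singly, held only without PDGF-B replicate 3. Against the culture Cdkn2a was not called in the PDGF-B-labelled or the EGFRvIII-labelled gliomas (limma adjusted p = 0.136 and 0.434). Which part of the locus the Ink/Arf allele removes is not stated in the labels. Whether the labels of origin and genotype hold therefore cannot be told from the Cdkn2a levels. Pdgfra, the receptor of PDGF, stood at 1738 to 4797, 1402 to 1904 and 408 CPM and was not called between the glioma groups (limma adjusted p = 0.308). Groups are therefore named throughout as labelled. The sort removes cells without DsRed, yet the summed level of 20 microglia and macrophage markers was 581 to 2364 CPM in the PDGF-B-labelled gliomas, 8398 to 18570 CPM in the EGFRvIII-labelled gliomas and 23.2 CPM in the culture, where P2ry13, Trem2, C1qb, Tyrobp and Mrc1 were at 0. The 18 oligodendrocyte precursor markers, all measured and none at 0 in any library, summed to 15490 to 28630, 11400 to 15020 and 6389 CPM in the same order. In these bulk libraries a larger share of cells that express a gene and more RNA of it per cell cannot be told apart.

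The 4 genes belong to unrelated families. Meox1 encodes a homeodomain transcription factor of the mesenchyme homeobox family, known for its part in somite and axial skeleton development. Nxf3 is an X-linked member of the nuclear export factor family, whose founding member Nxf1 carries most messenger RNA out of the nucleus; human NXF3 leaves the nucleus through the exportin CRM1. Pdlim3, also called ALP, encodes a protein with a PDZ and a LIM domain that binds alpha-actinin at the Z-disc of muscle. Adarb2 encodes ADAR3, a brain-enriched relative of the enzymes that deaminate adenosine to inosine in RNA; no editing activity of its own is known, and human ADAR3 can hold back editing by the related enzymes. Adarb2 is also a textbook marker of cortical interneurons born in the caudal ganglionic eminence.

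The promoters were looked at because the genes stood high in the same libraries. RefSeq's table on GRCm38.p6, the assembly also called mm10, held a promoter for 2 of the 4 genes, Pdlim3 and Adarb2. The 250 bases before each RefSeq start are shown 5′ to 3′ on the plus strand, at chr8:45885237-45885486 for Pdlim3 and chr13:8202616-8202865 for Adarb2. Capitals mark matches to the motifs searched.
Pdlim3: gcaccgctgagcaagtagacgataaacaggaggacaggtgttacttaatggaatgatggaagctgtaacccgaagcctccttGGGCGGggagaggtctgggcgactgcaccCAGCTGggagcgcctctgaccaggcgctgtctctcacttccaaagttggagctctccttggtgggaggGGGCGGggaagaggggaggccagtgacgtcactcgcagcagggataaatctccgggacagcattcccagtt
Adarb2: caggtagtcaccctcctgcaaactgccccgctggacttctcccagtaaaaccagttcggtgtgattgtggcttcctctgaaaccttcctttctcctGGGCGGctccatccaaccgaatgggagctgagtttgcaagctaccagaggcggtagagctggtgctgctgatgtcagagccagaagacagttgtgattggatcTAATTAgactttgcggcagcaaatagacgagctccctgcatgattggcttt
Pdlim3 held 2 matches to the GC box GGGCGG, which Sp and KLF factors bind, and Adarb2 held 1. Over all 32851 promoters of the same length, 32.7% held that motif. Pdlim3 also held 1 CAGCTG, an E-box core of basic helix-loop-helix factors, found in 13% of promoters, and Adarb2 held 1 TAATTA, a homeodomain core, found in 4.84%. Neither window held TATAAA, the AP-1 motif TGANTCA, the SOX and HMG box motif ACAAAG or the GATA motif GATAAG, which 12.4%, 6.75%, 16.5% and 6.55% of promoters held. Both strands were searched, and no 2 matches overlap. None of the motifs searched was in both windows except the GC box. GC content was 59.2% for Pdlim3 and 52.8% for Adarb2 against a median of 52.4% over all promoters.

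Meox1 (ENSMUSG00000001493, mm10 chromosome 11, 101877510 to 101894374, minus strand) was the member with the most even level among the PDGF-B-labelled gliomas, and the one closest to being restricted to gliomas. It stood at 90.9, 65.5 and 52.2 CPM in PDGF-B-labelled replicates 1 to 3, at 15.8, 3.50 and 3.52 CPM in EGFRvIII-labelled replicates 1 to 3, and at 0.029 CPM, which is 1 read, in the culture. The groups formed 3 steps without overlap, with EGFRvIII replicate 1 standing 4.53-fold above the lowest library of its group. On the deposited log2 scale the mean was 6.08 ± 0.40 in the PDGF-B-labelled gliomas and 2.55 ± 1.24 in the EGFRvIII-labelled gliomas (SD, n = 3 each), a difference of 3.53. Reads were pooled over the 3 libraries of a group and divided by their summed library size before each ratio to the culture, here and below. On that scale the PDGF-B-labelled gliomas stood 2395-fold above the culture (95% exact counting interval 430 to 94620). The EGFRvIII-labelled gliomas stood 263-fold above it (47.0 to 10380), or 121-fold without EGFRvIII replicate 1 (21.6 to 4805). The width of both intervals comes from the single culture read. Counting intervals here cover counting error only, not the spread between tumours.

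Nxf3 (ENSMUSG00000057000, chromosome X, 136072099 to 136085255, minus strand) reached the highest level of the 4 genes, per length of exon too. Its log2 levels had the widest spread of the 4 among the PDGF-B-labelled gliomas and the narrowest among the EGFRvIII-labelled gliomas, where the SDs of the other members were 1.17 to 1.64. It stood at 306, 16.4 and 33.7 CPM in PDGF-B-labelled replicates 1 to 3, at 0.832, 1.14 and 1.69 CPM in the EGFRvIII-labelled gliomas, and at 0.347 CPM (12 reads) in the culture. PDGF-B replicate 1 held 18.7 times the level of PDGF-B replicate 2, so the CPM mean of that group, 119 ± 163 (SD, n = 3), was smaller than its SD. The log2 means were 5.79 ± 2.20 in the PDGF-B-labelled gliomas and 0.30 ± 0.49 in the EGFRvIII-labelled gliomas (SD, n = 3 each), a difference of 5.49. The lowest library labelled PDGF-B stood 9.68-fold above the highest labelled EGFRvIII. Against the culture, pooled reads scaled to library size were 343-fold higher in the PDGF-B-labelled gliomas (196 to 663). In the EGFRvIII-labelled gliomas they were 3.54-fold higher (1.96 to 7.02, 95% exact counting intervals). PDGF-B replicate 1 held 10515 of the 12257 pooled reads before scaling, and without it the ratio of the PDGF-B-labelled gliomas was 73.0-fold (41.7 to 141.5).

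Pdlim3 (ENSMUSG00000031636, chromosome 8, 45885461 to 45919548, plus strand) shared the uneven pattern of Nxf3. It stood at 78.2, 5.39 and 36.1 CPM in PDGF-B-labelled replicates 1 to 3, at 0.660, 0.090 and 0.382 CPM in the EGFRvIII-labelled gliomas, and at 0.318 CPM (11 reads) in the culture. PDGF-B replicate 2 was again the lowest of its group, 14.5-fold under replicate 1 and 8.18-fold above the highest glioma labelled EGFRvIII. The EGFRvIII-labelled gliomas lay on both sides of the culture, and EGFRvIII replicate 2 held 3 reads. The log2 means were 4.64 ± 1.98 in the PDGF-B-labelled gliomas and -1.48 ± 1.17 in the EGFRvIII-labelled gliomas (SD, n = 3 each), a difference of 6.11. Scaled to library size, pooled reads were 126-fold those of the culture in the PDGF-B-labelled gliomas (70.6 to 254). They were 1.20-fold in the EGFRvIII-labelled gliomas, with a counting interval of 0.602 to 2.59 that includes no difference. Without PDGF-B replicate 1 the ratio was 67.0-fold in the PDGF-B-labelled gliomas (37.3 to 134.5), and without EGFRvIII replicate 1 it was 0.761-fold in the EGFRvIII-labelled gliomas (0.336 to 1.80).

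Adarb2 (ENSMUSG00000052551, chromosome 13, 8202866 to 8768747, plus strand) was the exception to restriction to gliomas. It stood at 77.9, 74.2 and 24.1 CPM in PDGF-B-labelled replicates 1 to 3, at 4.13, 0.389 and 1.83 CPM in the EGFRvIII-labelled gliomas, and at 5.53 CPM (191 reads) in the culture. The culture therefore lay above all 3 EGFRvIII-labelled gliomas and below all 3 labelled PDGF-B. The log2 means were 5.70 ± 0.95 in the PDGF-B-labelled gliomas and 0.61 ± 1.64 in the EGFRvIII-labelled gliomas (SD, n = 3 each), a difference of 5.09. Scaled to library size, pooled reads were 10.5-fold those of the culture in the PDGF-B-labelled gliomas (9.10 to 12.2). They were 0.386-fold in the EGFRvIII-labelled gliomas (0.317 to 0.471, 95% exact counting intervals). Without EGFRvIII replicate 1 the ratio of the EGFRvIII-labelled gliomas was 0.206-fold (0.157 to 0.269). Within the EGFRvIII-labelled gliomas the level spanned 10.6-fold, with replicate 1 highest and replicate 2 lowest.

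**Figure D1:**
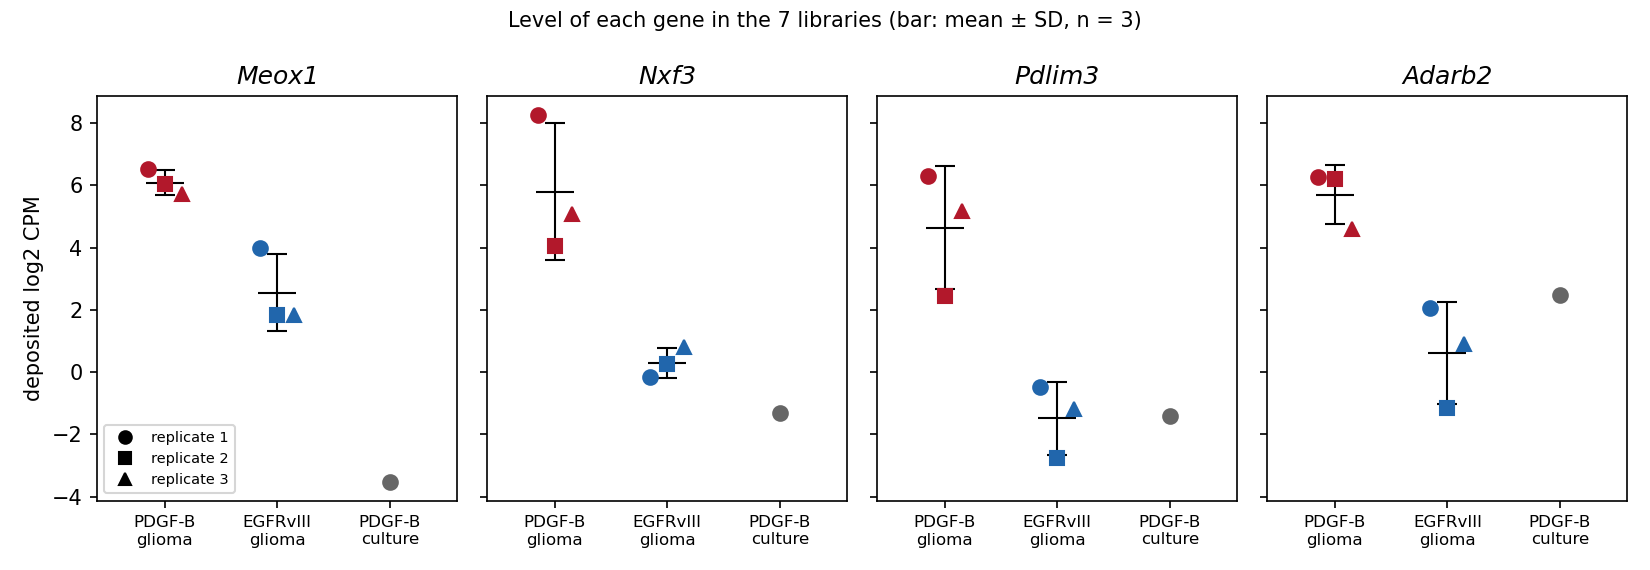
Deposited log2 CPM of Meox1, Nxf3, Pdlim3 and Adarb2 in the 3 PDGF-B-labelled gliomas, the 3 labelled EGFRvIII and the PDGF-B progenitor culture, with 1 point per library and bars for the mean and SD of each glioma group (n = 3). All 3 red points lie above all blue points for each gene; the culture is lowest for Meox1 (-3.53) and Nxf3 (-1.30), lies among the EGFRvIII-labelled gliomas for Pdlim3 (-1.41) and lies above them for Adarb2 (2.48).

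The order of the libraries differed between the genes. All 3 PDGF-B-labelled gliomas stood above all 3 labelled EGFRvIII for 4 of the 4 genes, which the choice of the genes fixes and from which nothing is read; the same held for 10.3% of all genes. PDGF-B replicate 1 was the highest of the 7 libraries for each of the 4 genes, as it was for 11.2% of all genes. Below it, replicate 2 exceeded replicate 3 for Meox1 and Adarb2, while replicate 3 exceeded replicate 2 for Nxf3 and Pdlim3. All 3 PDGF-B-labelled gliomas stood above the culture for each of the 4, which the choice may also fix, against 40.9% of all genes. All 3 EGFRvIII-labelled gliomas stood above the culture for Meox1 and Nxf3, against 34.1% of all genes, and below it for Adarb2, against 29.6%. Gliomas labelled PDGF-B all above and EGFRvIII-labelled gliomas all below the culture, the arrangement of Adarb2, occurred in 0.867% of genes. The choice of the genes fixes the order of the glioma groups, so that share makes the arrangement look rarer than it is. Of the 1803 genes with all 3 PDGF-B-labelled gliomas above all 3 labelled EGFRvIII, 151 had it. Neighbouring libraries in these orders, such as PDGF-B replicates 1 and 2 for Adarb2 or EGFRvIII replicates 2 and 3 for Meox1, each have 1 value, so their order carries no replicate error.

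The spread within groups set the genes apart from each other. Among the 10272 genes with a mean of at least 10 CPM in the PDGF-B-labelled gliomas, the median SD of log2 CPM was 0.19 in that group. The SDs of Nxf3 (2.20) and Pdlim3 (1.98) were reached by 0.370% and 0.643% of those genes, that of Adarb2 (0.95) by 5.03% and that of Meox1 (0.40) by 19.2%. Cell-cycle genes also set PDGF-B replicate 2 apart, since 20 mitosis genes summed to 253 CPM there against 1830 and 1887 CPM in PDGF-B replicates 1 and 3. Nxf3 and Pdlim3 were lowest of their group in that library, while Meox1 and Adarb2 were not. PDGF-B replicate 3 held the highest microglia and macrophage sum of its group, 2364 CPM, and the lowest Meox1 and Adarb2. The part of these differences in the levels was not tested.

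Levels of the 4 genes can be set against each other only per length of annotated exon, in CPM per kilobase over merged exons of 2228 bases for Meox1, 3048 for Nxf3, 5147 for Pdlim3 and 13114 for Adarb2. On that scale Nxf3 was highest in PDGF-B replicate 1, at 101 against 40.8 for Meox1, 15.2 for Pdlim3 and 5.94 for Adarb2. In PDGF-B replicates 2 and 3 Meox1 was highest, at 29.4 and 23.4, against 5.37 and 11.1 for Nxf3. Meox1 lay above 89.0% to 94.6% of genes per kilobase in the PDGF-B-labelled gliomas, above 28.9% to 62.1% in the EGFRvIII-labelled gliomas and above 3.36% in the culture. Adarb2, with the longest merged exons, lay above 31.9% to 58.2%, 1.87% to 10.2% and 18.8% in the same order. The isoforms behind the reads are unknown, so the per-kilobase levels depend on the annotation.

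No measured paralogue passed the test in any of the 3 comparisons. Between the glioma groups the log2 differences of the paralogues ran from -1.27 to 0.50. Those of the 4 genes, 3.53 to 6.11, are large by the choice of the genes, so nothing is read from the contrast. The test was limma on the deposited log2 values, fitted across all 17422 genes with Benjamini-Hochberg adjustment, calling genes at an adjusted p under 0.05. With the PDGF-B-labelled gliomas set against the EGFRvIII-labelled ones, 0.717% of genes (125) were called as higher and 2.63% (458) as lower. Against the culture 9.45% of genes were called in the PDGF-B-labelled gliomas (7.73% higher, 1.73% lower) and 9.55% in the EGFRvIII-labelled gliomas (8.2% higher, 1.34% lower), a pair of comparisons that share the culture library. Leaving out any glioma but PDGF-B replicate 3 reduced the 583 calls between the glioma groups to between 4 and 21. The fits give the single culture library the spread of the gliomas.

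Nxf1, the general messenger RNA exporter, stood at 190 ± 20.6 CPM in the PDGF-B-labelled gliomas and 170 ± 13.3 CPM in the EGFRvIII-labelled gliomas (SD, n = 3 each), with 207 CPM in the culture. Its log2 difference between the glioma groups was 0.16 ± 0.17 (SE, limma adjusted p = 0.645). Adar and Adarb1, the genes of the active editing enzymes ADAR1 and ADAR2, had log2 differences of 0.15 ± 0.16 and -0.01 ± 0.25 (SE, limma adjusted p = 0.649 and 0.989). Adarb1 stood at 36.6 ± 5.33 CPM in the PDGF-B-labelled gliomas and 37.6 ± 10.2 CPM in the EGFRvIII-labelled gliomas (SD, n = 3 each), with 48.7 CPM in the culture.

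Meox2, the other mesenchyme homeobox gene, was scarce in every library. It stood at 0.583, 0.788 and 0.224 CPM in PDGF-B-labelled replicates 1 to 3, at 2.41, 0.120 and 0.191 CPM in the EGFRvIII-labelled gliomas, and at 0.087 CPM (3 reads) in the culture. EGFRvIII replicate 1 was highest for Meox2, and it was also the highest of its group for Meox1. The log2 difference of Meox2 between the glioma groups was 0.16 ± 1.04 (SE, limma adjusted p = 0.947).

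Pdlim5 had the highest level of the 6 measured relatives of Pdlim3. It stood at 199 ± 24.6 CPM in the PDGF-B-labelled gliomas and 162 ± 18.04 CPM in the EGFRvIII-labelled gliomas (SD, n = 3 each). Its log2 difference was 0.29 ± 0.18 (SE, limma adjusted p = 0.460). Log2 differences of the other 5 between the glioma groups ranged from -1.27 for Pdlim2 to 0.50 for Ldb3, with limma adjusted p from 0.390 to 0.774. Pdlim1, Pdlim2 and Ldb3 stood under 4 CPM in all 7 libraries, and Pdlim4 and Pdlim7 between 5.03 and 37.0 CPM.

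**Figure D2:**
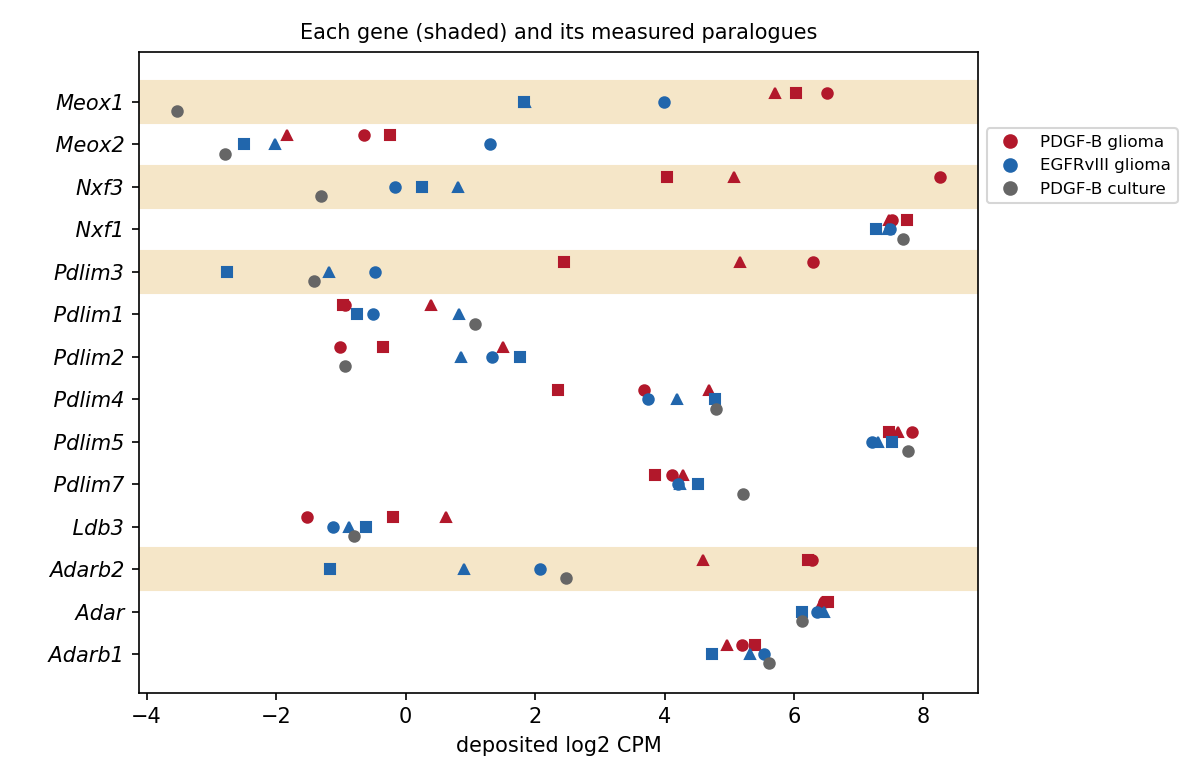
Deposited log2 CPM of the 4 genes (shaded rows) and their measured paralogues in the 7 libraries, with circles, squares and triangles for replicates 1, 2 and 3. The red and blue points overlap or lie close together for the paralogues, such as Nxf1 (log2 difference 0.16) and Adarb1 (-0.01). In the shaded rows the red and blue points lie apart, which the choice of the 4 genes fixes.

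Genes that work with the 4 members were followed in lists for messenger RNA export, alpha-actinin and LIM partners, A-to-I editing and somite regulators. The lists held 29, 22, 19 and 9 measured members in that order. Between the glioma groups 1 gene of these lists passed, where 0.717% of all genes were called higher and 2.63% lower. Nothing about the lists is read from 1 call. The gene was Igfbp7, a secreted growth-factor binding protein whose transcript is a known editing target. It stood at 41.9, 73.8 and 15.8 CPM in PDGF-B-labelled replicates 1 to 3, at 3.65, 3.39 and 7.31 CPM in the EGFRvIII-labelled gliomas, and at 1.04 CPM in the culture. The groups did not overlap, and the log2 difference was 3.01 ± 0.58 (SE, limma adjusted p = 0.0407). The call held without PDGF-B replicate 3 and ended when any of the other 5 gliomas was left out. It also ended without trend and robust moderation (limma adjusted p = 0.0706) and with voom (limma adjusted p = 0.0851), in all in 8 of 13 alternatives, whose limma adjusted p ran from 0.00506 to 0.176.

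The editing list had 1 of 19 measured members called higher and 0 lower between the glioma groups, against 0.717% and 2.63% of all genes. Its median log2 difference was 0.42 against 0.00 over all genes. Against the culture 6 of 19 were called higher in the PDGF-B-labelled gliomas and 3 in the EGFRvIII-labelled gliomas, with medians of 0.95 and 0.50. The shares of all genes called higher were 7.73% and 8.2%. The receptor gene Gabra3, a known editing target, stood at 85.9 ± 35.7 CPM in the PDGF-B-labelled gliomas and 60.7 ± 9.93 CPM in the EGFRvIII-labelled gliomas (SD, n = 3 each), with 2.72 CPM in the culture. Its log2 differences from the culture were 4.85 ± 0.50 and 4.44 ± 0.50 (SE, limma adjusted p = 0.00286 and 0.00220). Gria4, an AMPA receptor subunit, stood at 446 ± 121 CPM in the PDGF-B-labelled gliomas and 214 ± 67.5 CPM in the EGFRvIII-labelled gliomas (SD, n = 3 each), with 57.0 CPM in the culture. Against the culture it rose by 2.93 ± 0.41 and 1.86 ± 0.41 in the same order (log2, SE, limma adjusted p = 0.00684 and 0.0307). The call in the EGFRvIII-labelled gliomas ended without EGFRvIII replicate 1 or 3 (limma adjusted p = 0.0563 and 0.0627) and without trend and robust moderation (limma adjusted p = 0.0578). These libraries measure abundance, and editing levels were not analysed here.

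The messenger RNA export list had 0 of 29 measured members called between the glioma groups, against 3.35% of all genes. Limma gave no member of the list an unadjusted p under 0.05, and the median log2 difference of the list was -0.11. Against the culture 2 were called lower in the PDGF-B-labelled gliomas and 1 in the EGFRvIII-labelled gliomas, against 1.73% and 1.34% of all genes. Alyref, an adaptor that hands RNA to Nxf1, stood at 33.3 ± 6.94 CPM in the PDGF-B-labelled gliomas and 37.0 ± 3.14 CPM in the EGFRvIII-labelled gliomas (SD, n = 3 each), with 90.6 CPM in the culture (limma adjusted p = 0.0235 and 0.0333 against the culture). The call in the PDGF-B-labelled gliomas ended without PDGF-B replicate 1 (log2 difference -1.50, limma adjusted p = 0.0692), and that in the EGFRvIII-labelled gliomas without PDGF-B replicate 1, EGFRvIII replicate 1 or EGFRvIII replicate 3 (limma adjusted p = 0.0738, 0.0804 and 0.0890), without trend and robust moderation (limma adjusted p = 0.0669) and with voom (limma adjusted p = 0.0503). Ddx39, an RNA helicase of the export pathway, had 20.5 CPM on average in the PDGF-B-labelled gliomas and 52.6 CPM in the culture (limma adjusted p = 0.0361), a call kept only without PDGF-B replicate 3 or EGFRvIII replicate 2 when gliomas were left out singly, and ended without trend and robust moderation (limma adjusted p = 0.0623) and with voom (limma adjusted p = 0.0534).

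The alpha-actinin and LIM list had 0 of 22 measured members called between the glioma groups, against 3.35% of all genes. Its median log2 difference was -0.15, and limma gave 3 of the 22 an unadjusted p under 0.05. Actn1, a non-muscle alpha-actinin, stood at 8.05, 8.30 and 12.2 CPM in PDGF-B-labelled replicates 1 to 3, at 17.8, 23.7 and 23.2 CPM in the EGFRvIII-labelled gliomas, and at 54.6 CPM in the culture. The groups did not overlap, with the PDGF-B-labelled gliomas lowest, and the log2 difference between the glioma groups was -1.19 ± 0.26 (SE, limma adjusted p = 0.0557). The other genes with such a p, named after their values were seen, were Tgfb1i1, a LIM-domain adaptor of focal adhesions, at 1.38 ± 0.29, and Fhl3, another LIM-domain gene, at -1.86 ± 0.67 (log2 differences, SE, limma adjusted p = 0.0528 and 0.221). Against the culture 2 members of the list were called higher and 3 lower in the PDGF-B-labelled gliomas (7.73% and 1.73% of all genes). In the EGFRvIII-labelled gliomas 1 was called higher and 1 lower (8.2% and 1.34%). In the PDGF-B-labelled gliomas Actn1 fell by 2.54 ± 0.35 against the culture (log2, SE, limma adjusted p = 0.00670). Flnc was called lower there (limma adjusted p = 0.0299), a call that ended in 4 of 11 alternatives. Fhl1 was called lower in both groups (limma adjusted p = 0.0455 and 0.0481), and its EGFRvIII call ended in 8 of 11. Actn4, also a non-muscle alpha-actinin, stood at 140.5 ± 2.19 CPM in the PDGF-B-labelled gliomas and 154.7 ± 27.8 CPM in the EGFRvIII-labelled gliomas (SD, n = 3 each). Its log2 difference between the glioma groups was -0.12 ± 0.18 (SE, limma adjusted p = 0.745). Des, the muscle intermediate filament gene desmin, rose against the culture by 4.78 ± 0.67 in the PDGF-B-labelled gliomas and by 4.97 ± 0.67 in the EGFRvIII-labelled gliomas (log2, SE, limma adjusted p = 0.00717 and 0.00467), with 3 reads in the culture. With voom both calls of Des ended (limma adjusted p = 0.0808 and 0.0733), and with log2(CPM + 1) that in the PDGF-B-labelled gliomas did (limma adjusted p = 0.0537).

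Of 24 somite and paraxial mesoderm regulators 9 were measured and 0 were called in any comparison, and limma gave 1 an unadjusted p under 0.05 between the glioma groups and 1 in the PDGF-B-labelled gliomas against the culture. The median log2 difference between the glioma groups was 0.31. Of all genes 0.717% were called higher and 2.63% lower between the glioma groups. With 9 measured genes, 0 calls are near those shares, and nothing about Meox1 is read from them.

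Markers of the cell types in which Pdlim3 and Adarb2 are best known were set beside them. Of 17 smooth muscle, mural and fibroblast markers 14 were measured. Between the glioma groups 0 of the 14 were called, near the share of all genes, 3.35%. Their sum was 23.0 to 49.3 CPM in the PDGF-B-labelled gliomas, 29.5 to 65.0 CPM in the EGFRvIII-labelled gliomas and 27.8 CPM in the culture. Against the culture 4 were called higher and 1 lower in the PDGF-B-labelled gliomas (7.73% and 1.73% of all genes). In the EGFRvIII-labelled gliomas 3 were called higher and 0 lower (8.2% and 1.34% of all genes). Des was called higher in both, and with voom both its calls ended. Acta2, named after its values were seen, gave 12.8 CPM of the culture sum. Of 14 skeletal and cardiac muscle markers 5 were measured, with sums of 9.32 to 13.9, 3.90 to 14.5 and 5.26 CPM in the same order, and Tnni2 was at 0 in PDGF-B replicate 1 and in the culture. The part of these cells in the Pdlim3 levels was not tested. For caudal ganglionic interneurons 13 of 18 markers were measured. Their sums were 166 to 187 CPM in the PDGF-B-labelled gliomas, 105 to 146 CPM in the EGFRvIII-labelled gliomas and 131 CPM in the culture. Their mean log2 CPM was 0.12 to 0.96, 0.45 to 1.00 and 2.25 in the same order. Against the culture 1 was called higher and 3 lower in the PDGF-B-labelled gliomas (7.73% and 1.73% of all genes). In the EGFRvIII-labelled gliomas 0 were called higher and 2 lower (8.2% and 1.34%). The homeobox gene Dlx1 was called lower in both (limma adjusted p = 0.0145 and 0.0101), and neither call ended in 11 alternatives. None of the 13 was called between the glioma groups, against 3.35% of all genes, a share that 0 of 13 is near. Limma gave 4 of the 13 an unadjusted p under 0.05 in that comparison. These, named after their values were seen, were Gad1, the gene of a GABA-synthesising enzyme, with a log2 difference of 0.94 ± 0.33, and the homeobox genes Dlx2, Dlx5 and Dlx6, with -2.39 ± 0.95, -2.60 ± 0.67 and -3.65 ± 0.80 (SE, limma adjusted p = 0.208, 0.268, 0.0926 and 0.0595). At 0 were Dlx5 in PDGF-B replicate 1, Dlx2, Dlx5 and Dlx6 in PDGF-B replicate 2 and Htr3a in EGFRvIII replicate 1. The part of interneurons in the Adarb2 levels was not tested.

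Oligodendrocyte precursor markers were followed in the same way. Of 18 measured, 2 were called higher and 0 lower in the PDGF-B-labelled gliomas than in the EGFRvIII-labelled gliomas, against 0.717% and 2.63% of all genes. Their median log2 difference was 0.71 against 0.00 over all genes. Their mean log2 CPM was 9.41, 9.84 and 8.90 in PDGF-B-labelled replicates 1 to 3, 8.31, 7.93 and 8.11 in the EGFRvIII-labelled gliomas, and 6.55 in the culture. Against the culture 11 of the 18 were called higher and 0 lower in the PDGF-B-labelled gliomas (7.73% and 1.73% of all genes). In the EGFRvIII-labelled gliomas 6 were called higher and 0 lower (8.2% and 1.34%). Between the glioma groups the called genes were the sialidase gene Neu4 and the receptor gene Gpr17. Both calls ended without PDGF-B replicate 1 or 2 or EGFRvIII replicate 2 or 3 (limma adjusted p from 0.0590 to 0.120). With the replicate block both ended too (limma adjusted p = 0.0589 for Neu4 and 0.0534 for Gpr17). That of Gpr17 also ended without EGFRvIII replicate 1 (limma adjusted p = 0.0761), and that of Neu4 without trend and robust moderation (limma adjusted p = 0.0549). Of the 20 microglia and macrophage markers 19 were called lower and 0 higher, with a median of -3.24. That count was 0 without PDGF-B replicate 1 or 2 or EGFRvIII replicate 3, 2 and 1 without EGFRvIII replicates 1 and 2, 20 without PDGF-B replicate 3 and 9 without trend and robust moderation. The part of either cell type in the levels of the 4 genes was not tested.

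The neighbourhood of each gene on its chromosome was read from the same fit. Of the 24 nearest measured protein-coding genes, 3 on each side of each member, 0 were called between the glioma groups, against 3.35% of all genes, and limma gave 3 an unadjusted p under 0.05. Their log2 differences ranged from -1.05 to 2.37 with a median of 0.09, each smaller than that of the member beside it. The choice of the members favours that gap, so nothing is read from it. Around Meox1 the nearest were Etv4, an ETS transcription factor gene 92.1 kb away, and Dusp3, a phosphatase gene 76.8 kb away. Etv4 stood at 241 ± 54.5 CPM in the PDGF-B-labelled gliomas and 139 ± 32.0 CPM in the EGFRvIII-labelled gliomas (SD, n = 3 each), a log2 difference of 0.79 ± 0.25 (SE, limma adjusted p = 0.170), and Dusp3 had one of -0.43 ± 0.16 (SE, limma adjusted p = 0.238).

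Nxf3 lies 3.86 kb from Bex2, which stood at 112 ± 7.58 CPM in the PDGF-B-labelled gliomas and 120 ± 12.8 CPM in the EGFRvIII-labelled gliomas (SD, n = 3 each, log2 difference -0.09 ± 0.16, SE, limma adjusted p = 0.793). On its other side Bex4, 53.7 kb away, had a log2 difference of 0.12 ± 0.19 (SE, limma adjusted p = 0.762). Within 4 kb on the X chromosome, a gene spanning 18.7-fold among the PDGF-B-labelled gliomas thus stood beside one with a range of 107 to 121 CPM in the same libraries.

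Beside Pdlim3 lie Sorbs2, an adaptor of the actin cytoskeleton 57.6 kb away with a log2 difference of 0.35 ± 0.31 (SE, limma adjusted p = 0.594), and Ccdc110, 15.1 kb away. Ccdc110 was scarce, at 1.86, 0.576 and 0.896 CPM in PDGF-B-labelled replicates 1 to 3, at 0.201, 0.060 and 0.218 CPM in the EGFRvIII-labelled gliomas, and at 0.492 CPM in the culture. In the PDGF-B-labelled gliomas its replicates stood in the same order as those of Pdlim3, and replicate 2 was the lowest labelled EGFRvIII for both genes. Its log2 difference of 2.37 ± 0.62 did not pass (SE, limma adjusted p = 0.0964). Adarb2 lies 34.2 kb from Wdr37 and 1554 kb from Pfkp, with log2 differences of 0.11 ± 0.15 and 0.24 ± 0.18 (SE, limma adjusted p = 0.735 and 0.529).

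**Figure D3:**
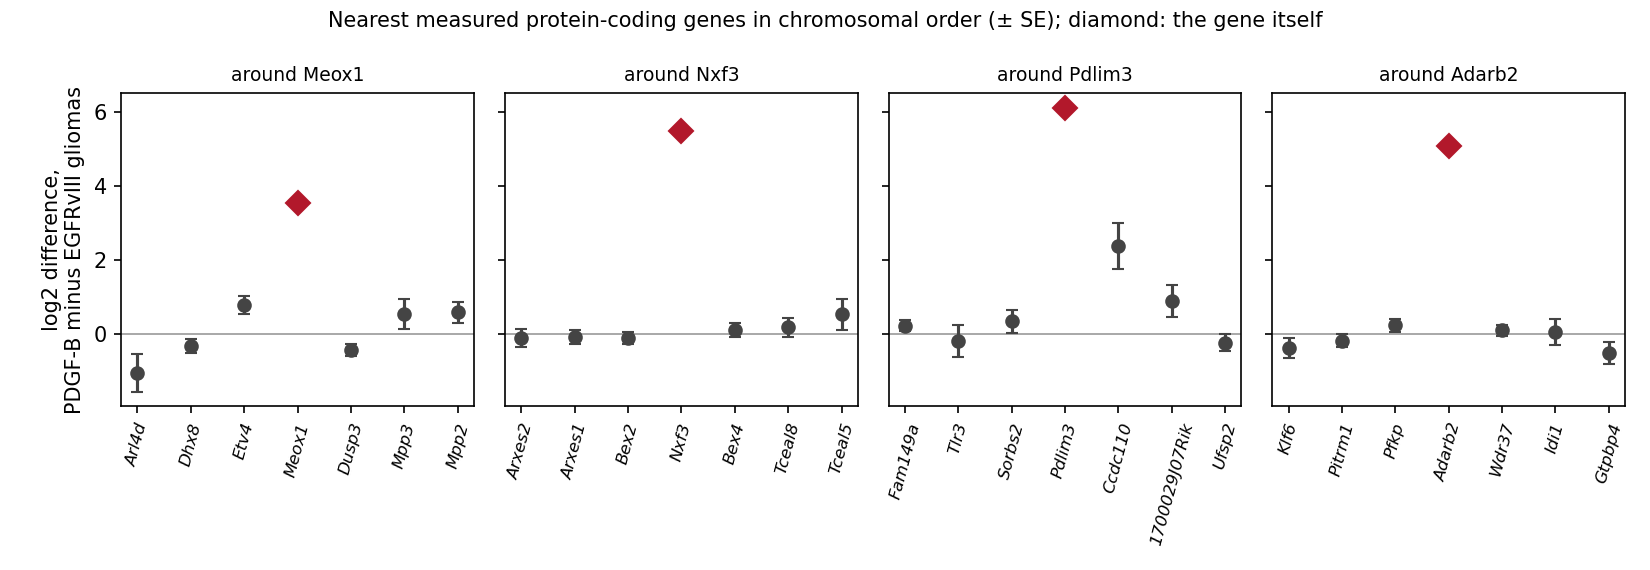
Log2 difference between the PDGF-B-labelled gliomas and the EGFRvIII-labelled gliomas for each gene (diamond) and its 3 nearest measured protein-coding genes on each side in chromosomal order (circles, ± SE), at equal spacing and not to distance. The members stand at 3.53 to 6.11, above their neighbours, of which Ccdc110 beside Pdlim3 is highest at 2.37. The choice of the members favours that gap.

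Likeness in profile was the root mean square difference of log2 CPM over the 7 libraries, with each gene centred on its own mean. The nearest were sought among 11231 other genes with at least 10 CPM in a library. Predicted genes (Gm and Rik) and IDs without a symbol were left out. The likeness is a description and carries no test. Nxf3 and Pdlim3 were each other's nearest gene, at 1.09 log2 units. Adarb2 was sixth nearest to Pdlim3 (1.59), while from Meox1 the other members stood in places 140, 304 and 742 (2.04, 2.35 and 2.69 log2 units). Places depend on the gene they are counted from. Meox1 stood in place 44 from Nxf3, 70 from Pdlim3 and 6732 from Adarb2. Whether the 4 genes share 1 profile over the 7 libraries was not tested.

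Closest to Meox1 were Aldh1a1, a retinaldehyde dehydrogenase that makes retinoic acid (0.76), Gucy2f, a retinal guanylate cyclase (0.91), the complement gene C4b (0.99) and the transporter gene Abca6 (1.13). Aldh1a1 stood at 25.6, 46.3 and 40.3 CPM in PDGF-B-labelled replicates 1 to 3, at 14.0, 3.72 and 1.78 CPM in the EGFRvIII-labelled gliomas, and at 0.092 CPM (3 reads) in the culture. It showed the same 3 steps as Meox1, with EGFRvIII replicate 1 highest of its group. After Pdlim3, those closest to Nxf3 were Gbp6, of the interferon-inducible guanylate-binding proteins (1.46), Trnp1, a nuclear protein gene of neural progenitors (1.52), and the sulfotransferase gene Chst8 (1.60).

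After Nxf3, those closest to Pdlim3 were Gbp11 (1.55), the hindbrain homeobox gene Hoxa2 (1.56) and the caspase gene Casp12 (1.57). Hoxa2 stood at 1.54, 0.303 and 11.96 CPM in PDGF-B-labelled replicates 1 to 3, at 0.172, 0.030 and 0 CPM in the EGFRvIII-labelled gliomas, and at 0.058 CPM in the culture, with its highest level in PDGF-B replicate 3, where Pdlim3 was second. Gbp6 and Gbp11 belong to a gene family of similar copies, and the sources used here do not say how shared reads were split between them. Closest to Adarb2 were the adhesion gene L1cam (1.00), the junction gene Myzap (1.06), the calcium-binding protein gene S100a3 (1.11) and the calpain gene Capn5 (1.14). L1cam stood at 25.6, 41.4 and 23.3 CPM in PDGF-B-labelled replicates 1 to 3, at 2.01, 0.986 and 2.24 CPM in the EGFRvIII-labelled gliomas, and at 1.59 CPM in the culture. Capn5 resembled Adarb2 in the culture too, which at 13.3 CPM lay above the 2.21 to 3.50 CPM of the EGFRvIII-labelled gliomas.

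**Figure D4:**
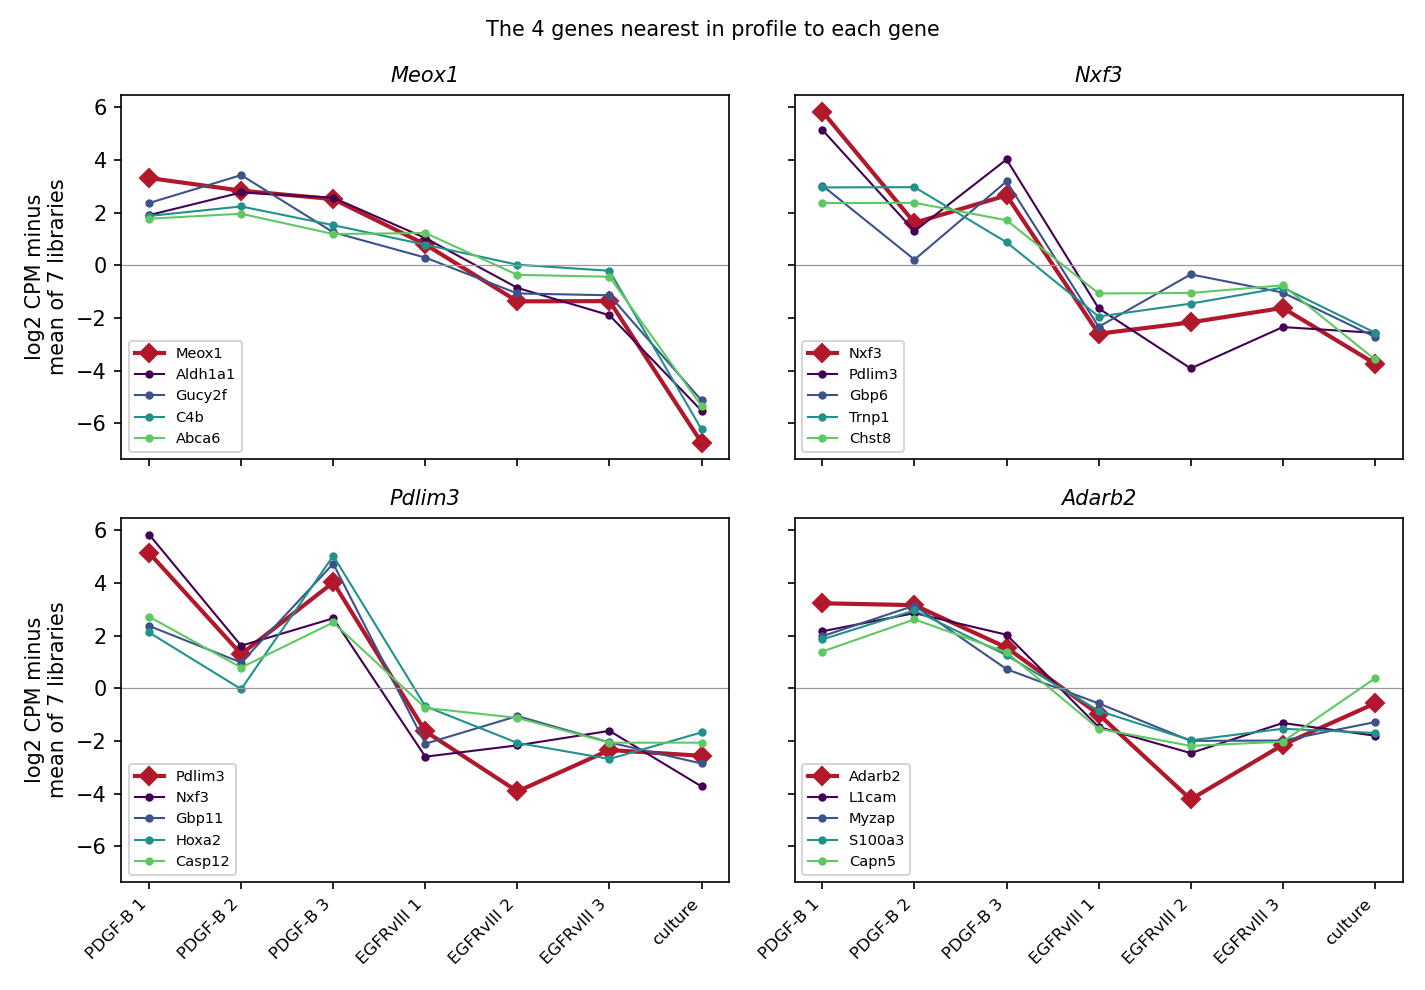
Log2 CPM minus the mean of the 7 libraries for each of the 4 genes (thick red line) and the 4 genes nearest to it (thin lines), by library; the lines join separate libraries only to guide the eye. Meox1 and its nearest genes are lowest in the culture, Nxf3 and Pdlim3 dip in PDGF-B replicate 2, and Adarb2 lies higher in the culture than in the 3 EGFRvIII-labelled gliomas.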

How the data were processed

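RNA-seq of 7 mouse libraries was used. The deposited values are log2 CPM, per the file headers, except that EGFRvIII replicate 3 has a column without a named unit but with the common floor of -4.12. STAR, edgeR and mm10 are named, without versions, per the submitters' processing notes; not given in the sources used here are the quantifier, the gene filter, the strand setting and whether poly(A) selection or ribosomal RNA depletion was used. Values above the floor were multiples of 0.01 read with a prior count of 2 added, so they derive from estimated counts; between 36.3% and 38.4% were whole reads within 0.02 read. CPM printed here has the prior removed. IDs were matched to GENCODE M21 symbols (GRCm38) for 17247 of 17422 genes.

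The 4 genes and all lists were chosen with earlier results of these data known. Fits used limma 3.58.1 in R 4.3.3 with an intensity trend and robust moderation, on 6 gliomas for the comparison between glioma groups and on all 7 libraries for those with the culture, and were tested on simulated data. The series calls the gliomas of each model independent; p-values measure the spread between these tumours. Annotation puts an antisense gene over Meox1 and 5 unmeasured loci over Adarb2, and without a stated strand setting their reads cannot be told apart. Differences on the log2 scale understate changes of genes with few reads. Named genes were the 4 genes, measured paralogues, the nearest neighbours, up to 3 called genes of smallest p in each other list, the 4 nearest in profile and the driver genes; a called gene of the editing list is not reported here. Alternatives covered log2(CPM + 1), a minimum mean of 1 CPM, median-of-ratios scaling, limma without trend and robust moderation, voom on recovered reads, a replicate block, 1 fit of all 7 libraries and each glioma left out; leaving a glioma out of the ratios to the culture was added after the data were seen.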

Additional observations from a re-analysis of the deposited data

Results flagged for a closer look

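Adarb2 moved in opposite directions from the culture in the glioma groups. Its log2 difference from the culture was 3.22 in the gliomas labelled PDGF-B, with 3 of 3 libraries above it, and -1.88 in those labelled EGFRvIII, with 3 of 3 below it. The contrast between the glioma groups chose this gene, so the difference was not tested, and the culture is 1 library.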

How the results depend on the processing

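Of 116 alternative values of the differences of the 4 genes, 109 kept their sign and moved by less than the SD between replicates, 5 moved by more and 2 changed sign. With log2(CPM + 1) the difference between the glioma groups was 4.29 for Pdlim3, that between the gliomas labelled PDGF-B and the culture was 6.06 for Meox1, and those between the gliomas labelled EGFRvIII and the culture were 2.76 for Meox1, 0.70 for Nxf3 and 0.04 for Pdlim3, the last with its sign turned; a larger pseudocount shrinks differences of scarce genes by construction. With voom Meox1 exceeded the culture by 10.61 in the gliomas labelled PDGF-B. With 1 glioma left out, the differences between the glioma groups ranged from 3.17 to 4.25 for Meox1, 4.26 to 6.37 for Nxf3, 5.29 to 7.21 for Pdlim3 and 4.21 to 5.82 for Adarb2, and that of Pdlim3 between the gliomas labelled EGFRvIII and the culture from -0.56 to 0.58.

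Between the glioma groups 583 genes were called, 4 to 1282 with 1 glioma left out (4 without PDGF-B replicate 1, 7 without PDGF-B replicate 2 or EGFRvIII replicate 3, 1282 without PDGF-B replicate 3) and 224 without trend and robust moderation. The replicate block gave 18. After centring on the group means, same-numbered gliomas correlated at 0.19, -0.04 and -0.10. Centring ties these values to each other, so they cannot tell whether the numbers pair the samples. Against the culture 1647 genes were called in the gliomas labelled PDGF-B (854 to 2303 with 1 glioma left out, 553 with voom) and 1663 in those labelled EGFRvIII (1058 to 2030, 721 with voom). The cause of these changes was not tested. Of 231 alternative values for paralogues and nearest neighbours 8 changed sign, none called: Meox2 at -0.13 with log2(CPM + 1) and between -0.55 and 1.35 with 1 glioma left out, Adarb1 between -0.24 and 0.16 and Pdlim1 between -0.82 and 0.12. Depth limits Pdlim3 in the gliomas labelled EGFRvIII and Meox1 in the culture, at 1 to 23 reads.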
